A study of Homo sapiens with 6 samples.

Results

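Nuclear pores, the soluble receptors that carry cargo through them and the enzymes of the Ran cycle were described in the 83 cell line, a carcinoma line that the submitters call a SACC cell, with and without overexpression of ApoD, a secreted lipid-binding lipocalin. The 61 genes were chosen by symbol from the 21676 genes of the count table: genes with the symbols NUP, KPN, IPO, TNPO or XPO and a number or letter, pore genes and CSE1L under other symbols, and RAN, RANGAP1, RCC1 and NUTF2. Some relatives with other symbols lie outside this set, such as the nucleoporin AHCTF1 and the importin beta relatives RANBP6 and RANBP17, none of which passed the test used below. RNA sequencing covered 3 control libraries and 3 libraries with ApoD overexpression, here called the ApoD libraries. All 6 came from the same line, with no other agent named; the labels do not say how ApoD was introduced, what the controls received, or whether libraries of a group came from separate cultures, so p-values measure only the spread between these libraries.

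The nuclear pore complex is a ring-shaped channel through the nuclear envelope, built from an outer ring, an inner ring, a membrane ring, a central channel, filaments on the cytoplasmic face and a basket on the nuclear face. Importins bind cargo in the cytoplasm and release it in the nucleus when they meet Ran bound to GTP, and exportins bind their cargo together with Ran-GTP and release it in the cytoplasm. RCC1 on chromatin loads Ran with GTP and RANGAP1 at the cytoplasmic face of the pore makes it hydrolyse that GTP, which keeps transport directional. Dividing carcinoma cells make pores and receptors in each cycle.

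The libraries held 37542568 to 40416964 counts, and the 61 genes took 0.902% to 1.01% of the counts in controls and 1.09% to 1.24% in ApoD libraries. Counts of APOD itself were 9, 8 and 2 in controls against 628, 528 and 625 with overexpression, which fits the labels. Among markers of cell types, all 10 epithelial genes were expressed; 6 of them fell and 1 rose (edgeR adjusted p of 0.05), with summed levels of 3624 to 4667 CPM (counts per 1000000, after TMM scaling, a trimmed mean of ratios between libraries) in controls and 4035 to 4535 CPM in ApoD libraries. The leukocyte markers PTPRC and LYZ were at or near 0; the leukocyte list summed to 15.8 to 32.9 CPM in controls and 36.7 to 39.1 CPM in ApoD libraries, nearly all of it CD68. The stromal list summed to 26.9 to 32.6 CPM in controls and 9.85 to 13.8 CPM in ApoD libraries, and the endothelial list to 8.10 to 13.4 CPM and 1.35 to 2.30 CPM; each tested gene of these lists, 2 and 3, fell. The part of these shifts in the results was not tested, and in bulk RNA a change in the share of a cell type and a change in RNA per cell cannot be told apart.

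Most of these genes were higher with ApoD overexpression. Of the 61 members 60 had enough counts to be tested, the exception being NUP210L; 42 rose, 2 fell and 16 did not pass (edgeR quasi-likelihood test, adjusted p of 0.05 over all tested genes). Over all 14629 tested genes 24.2% were called higher and 24.6% lower, 48.8% in all. The median log2 fold change, ApoD over control, was 0.44 for the members and −0.02 for all tested genes. The 3 ApoD libraries lay above the 3 controls for 42 of the 60 members, against 29% of all tested genes. They lay below the controls for 1 member, NUP210, against 4338 of the 14629 tested genes.

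The size of this difference depended on abundance and on scaling. Genes with many counts were called higher more often in these libraries: among the 7070 tested genes that averaged 1000 counts or more, 37.5% were called higher, with a median log2 fold change of 0.14. Of the 56 members above that count 41 rose, with a median of 0.47. When each library's trend with abundance was removed, 31 members rose and 1 fell, against 22.3% higher among all genes. Scaling by library totals alone moved the median of all genes to −0.13, called 2581 genes higher and 4432 lower where TMM gave 3539 and 3601, and left 35 members higher and 2 lower.

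**Figure D1:**
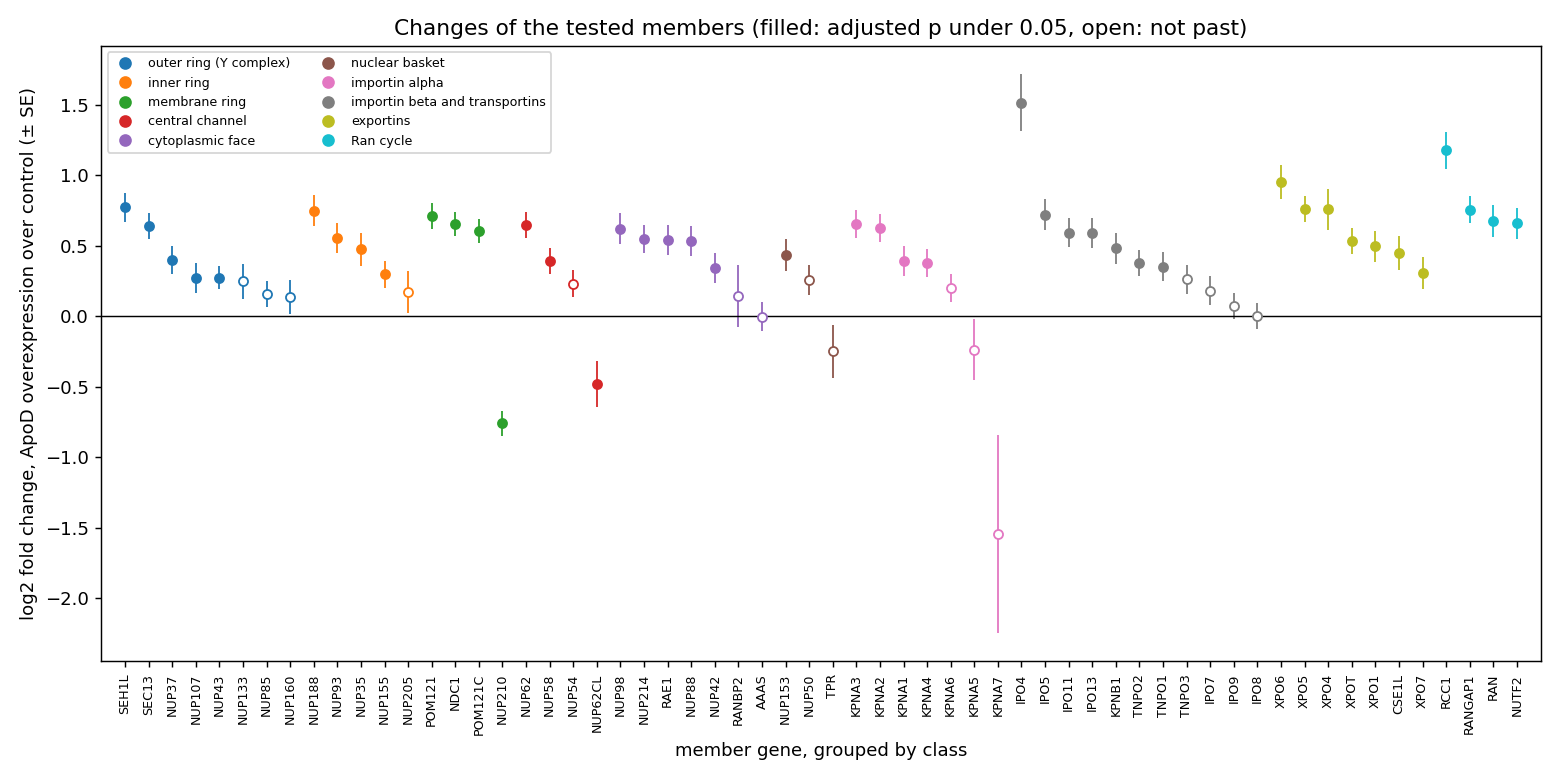
Log2 fold change (ApoD overexpression over control, vertical axis, ± SE) of the 60 tested members, grouped by class along the horizontal axis and sorted within each class; filled points passed an adjusted p of 0.05 and open points did not. Most points lie above 0, led by IPO4 at 1.51 and RCC1 at 1.18, and NUP210 lies lowest among the called genes at −0.76.

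The Ran cycle rose in all 4 of its genes. RCC1, the exchange factor that loads Ran with GTP, stood at 87.1, 63.7 and 63.5 CPM in the controls and at 145, 180 and 159 CPM in the ApoD libraries. The groups did not overlap, and the rise was 2.26-fold (log2 fold change 1.18 ± 0.13 SE, edgeR adjusted p = 2.99e-05). RANGAP1, the activator of the Ran GTPase, went from 154, 143 and 148 CPM to 224, 274 and 253 CPM, with a log2 fold change of 0.76 ± 0.10 (edgeR adjusted p = 6.39e-05). Transcripts for both ends of the cycle were thus higher, RCC1 by more. The ratio of RCC1 to RANGAP1 per length (FPKM, the count per kilobase of gene in each 1000000 counts) was 1.87, 1.46 and 1.42 in controls and 2.13, 2.17 and 2.08 in ApoD libraries. This ratio was chosen after its values were seen and was not tested. RCC1 has 2727 bases and RANGAP1 has 8995. Over all genes averaging 500 counts or more the median log2 fold change was 0.17 from 2000 to 4000 bases and −0.06 at 8000 or more. The part of gene length in the ratio was not tested. GENCODE places an exon of the small nucleolar RNA host gene SNHG3 over 105 bases of RCC1 on the same strand; SNHG3 itself rose by 0.28. In all, 13 members share exon bases with another gene of the table, so their counts are less certain.

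RAN, the GTPase itself, was the most abundant member per length, at 265 FPKM on average in controls and 390 FPKM in ApoD libraries. Its level was 813, 656 and 637 CPM in controls and 1031, 1245 and 1090 CPM in ApoD libraries, with no overlap and a log2 fold change of 0.68 ± 0.11 (edgeR adjusted p = 0.000450). NUTF2, the small carrier that returns Ran-GDP to the nucleus, stood at 97.3, 76.7 and 78.3 CPM and at 128, 141 and 129 CPM, a rise of 0.66 ± 0.11 on the log2 scale. Control replicate 1 was the highest control for all 4 genes and lay nearest to the ApoD libraries. GENCODE names 9 pseudogenes of RAN and 7 of NUTF2, whose reads the counting may have shared with them.

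Importin beta proteins and transportins, which carry cargo through the channel, rose in 7 of 11 genes and fell in none. IPO4, which brings histones and the ribosomal protein RPS3A into the nucleus, had the largest rise of all members. It stood at 75.8, 43.7 and 38.2 CPM in the controls and at 136, 160 and 155 CPM in the ApoD libraries, a 2.86-fold rise (1.51 ± 0.20 SE on the log2 scale, edgeR adjusted p = 9.79e-05). The lowest ApoD library lay well above the highest control, which was replicate 1; without that control the log2 fold change was 1.88. IPO4 shares a short stretch of exon with REC8 on the other strand, which had 23 to 85 counts per library.

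IPO5, which imports ribosomal proteins and histones, rose from 300, 254 and 241 CPM to 435, 392 and 481 CPM, a change of 0.72 ± 0.11 on the log2 scale (edgeR adjusted p = 0.000230). KPNB1, importin beta 1 and the partner of every importin alpha, rose from 637, 544 and 513 CPM to 739, 738 and 887 CPM, with a log2 fold change of 0.48 ± 0.11 (edgeR adjusted p = 0.00328). Neither gene overlapped between groups. IPO11 and IPO13 rose by 0.59 each, TNPO2 by 0.38 and TNPO1 by 0.35; the call of TNPO1 was lost in 7 of 16 alternative fits.

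Members of this class that did not pass were IPO7, IPO8, IPO9 and TNPO3. IPO7, an importer of ribosomal proteins and histone H1 and the most abundant of the class per length, stood at 710, 714 and 756 CPM in controls and at 890, 708 and 873 CPM in ApoD libraries, with a log2 fold change of 0.18 ± 0.10. Here ApoD replicate 2 lay below every control and the other ApoD libraries above; without it IPO7 passed, at 0.27 (edgeR adjusted p = 0.0164). IPO8, its closest relative, and IPO9 had values of 0.00 and 0.08. TNPO3, the importer of SR splicing factors, had 0.26 (edgeR adjusted p = 0.0512), and 6 alternative fits called it higher.

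Importin alpha proteins, the adaptors that read the classical nuclear localization signal for KPNB1, rose in 4 of 7 genes. KPNA2 made up most of the class: it held 62.8%, 61.0% and 60.2% of the summed FPKM of the 7 genes in controls and 63.4%, 64.9% and 65.5% in ApoD libraries. All 3 shares were above the controls. The exact two-sided permutation test gave p = 0.1, the smallest that 3 against 3 libraries allow (0.14 adjusted over the 7 genes). Shares of KPNA1, KPNA4, KPNA6 and KPNA7 were lower in every ApoD library than in every control, with the same p of 0.1 in this test. KPNA2 has 2574 bases, and KPNA1, KPNA4 and KPNA6 have 8732, 8952 and 8486. Long genes had lower fold changes in these libraries. With the length trend removed the log2 fold change was 0.58 for KPNA2, and 0.48, 0.47 and 0.29 for KPNA1, KPNA4 and KPNA6. The part of gene length in the shares was not tested. KPNA2 itself rose from 234, 193 and 192 CPM to 320, 301 and 334 CPM (log2 fold change 0.62 ± 0.10 SE, edgeR adjusted p = 0.000339).

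KPNA3 stood at 72.0, 69.6 and 70.1 CPM in controls and at 124, 101 and 107 CPM in ApoD libraries, a rise of 0.65 ± 0.10. KPNA1 and KPNA4 rose by 0.39 and 0.38, and each lost its call in several alternative fits, among them the one with the abundance trend removed. KPNA6 had a log2 fold change of 0.20 and KPNA5, a rare member at 0.565 FPKM in controls, one of −0.24, neither past the threshold. KPNA7, an importin alpha of the early embryo, had 18, 44 and 14 counts in controls and 6, 2 and 16 counts in ApoD libraries; the groups overlapped and the change did not pass, but without ApoD replicate 3 it did, at −2.50 (edgeR adjusted p = 0.0267).

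Exportins rose in all 7 genes. XPO6, the exportin of actin and profilin, changed most: it stood at 177, 133 and 129 CPM in the controls and at 268, 276 and 302 CPM in the ApoD libraries. The groups were far apart, with a 1.93-fold rise (log2 fold change 0.95 ± 0.12 SE, edgeR adjusted p = 6.98e-05). XPO5, which exports pre-miRNA hairpins, went from 96.4, 89.4 and 85.3 CPM to 142, 155 and 161 CPM, with a log2 fold change of 0.76 ± 0.09 (edgeR adjusted p = 4.86e-05). XPO5 overlaps exons of POLR1C on the other strand, which also rose, by 0.88, and reads of the overlap cannot be told apart without strand.

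XPO4, which exports the hypusinated translation factor eIF5A, was scarce per length at 2.69 FPKM in controls. Its level was 45.3, 33.1 and 37.7 CPM in controls and 68.4, 52.1 and 75.8 CPM in ApoD libraries, a rise of 0.76 ± 0.15 on the log2 scale. XPO1, the main exportin for proteins with a leucine-rich export signal, rose from 372, 295 and 312 CPM to 499, 411 and 472 CPM (log2 fold change 0.50 ± 0.11 SE, edgeR adjusted p = 0.00280). Its groups did not overlap, although control replicate 1 and ApoD replicate 2 lay close.

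CSE1L, which returns importin alpha to the cytoplasm, was the most abundant exportin per length, at 110 FPKM in controls and 139 FPKM in ApoD libraries. It stood at 445, 368 and 372 CPM in controls and at 584, 447 and 589 CPM in ApoD libraries, so that ApoD replicate 2 barely exceeded control replicate 1. The log2 fold change was 0.45 ± 0.12 (edgeR adjusted p = 0.00855), and the call was lost with the abundance trend removed (0.25, edgeR adjusted p = 0.0924) and on FPKM. XPOT, the tRNA exportin, rose by 0.54, and XPO7 by 0.31 (edgeR adjusted p = 0.0405), a call lost in 9 of 16 alternative fits.

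**Figure D2:**
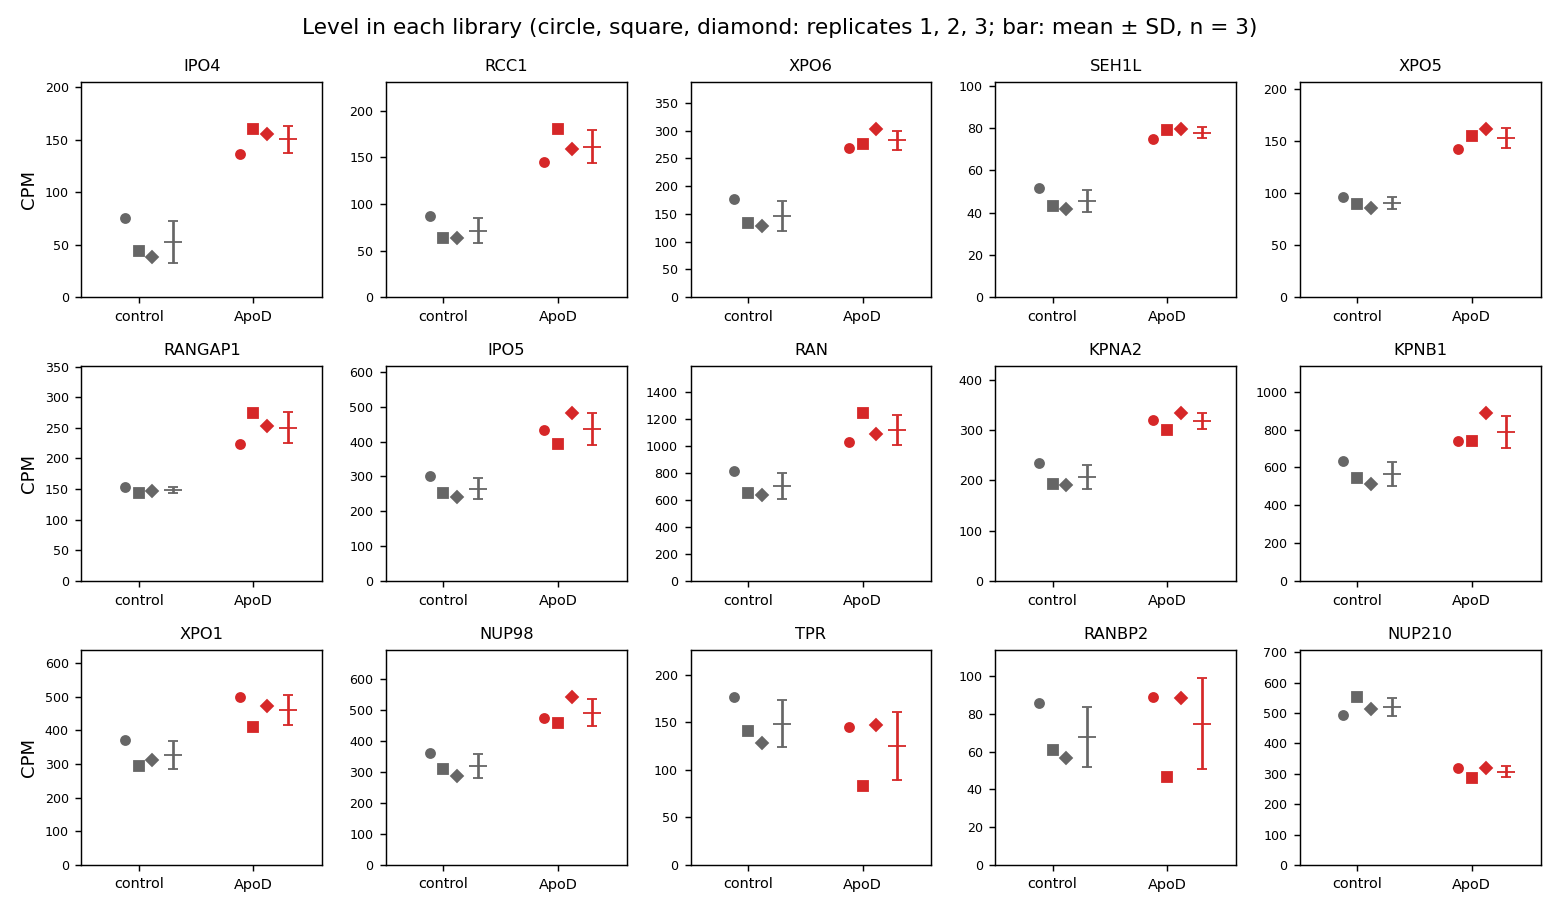
Level in CPM (vertical axis, each panel from 0) of 15 members in the 3 control (grey) and 3 ApoD (red) libraries; circle, square and diamond are replicates 1, 2 and 3, and the bar at the side is the mean ± SD (n = 3). ApoD libraries lie above all controls in the panels from IPO4 to NUP98, overlap them for TPR and RANBP2 where the square is lowest, and lie below them for NUP210.

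Nucleoporins, the structural proteins of the pore, rose in 20 of 31 tested genes and fell in 2. The membrane ring, which anchors the pore in the nuclear envelope, moved both ways. NUP210, a large glycoprotein whose bulk lies in the lumen of the envelope and which is known for tissue-restricted expression, stood at 493, 553 and 515 CPM in controls and at 318, 286 and 318 CPM in ApoD libraries. It fell to 0.591 of its control level (−0.76 ± 0.09 SE on the log2 scale, edgeR adjusted p = 4.11e-05), the only member with every ApoD library below every control. The call held in each of the 16 alternative fits, with changes of −0.65 with the length trend removed to −0.96 with the abundance trend removed. The test against a 1.5-fold change is not among these 16 and did not call NUP210 (glmTreat adjusted p = 0.0673).

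The other proteins of the membrane ring rose. NDC1, an integral membrane protein needed to set pores into the envelope, went from 126, 128 and 134 CPM to 212, 203 and 195 CPM (log2 fold change 0.65 ± 0.08 SE, edgeR adjusted p = 7.40e-05). POM121 rose from 112, 99.6 and 95.8 CPM to 159, 169 and 173 CPM, a change of 0.71 ± 0.09, and POM121C by 0.60; these genes are near-identical copies, so their counts can hold each other's reads. NUP210 made up 44.9%, 48.3% and 46.3% of the summed FPKM of the membrane ring in controls and 25.5%, 23.3% and 25.2% in ApoD libraries, a share picked out after its values were seen. The summed FPKM of the ring, scaled by library totals and not by TMM, was 109 ± 3.37 in controls and 112 ± 2.61 in ApoD libraries (SD, n = 3). On that scale the exact permutation p was 0.3. NUP210L, a relative of NUP210, had 2 counts in ApoD replicate 1 and 0 in the other libraries, below the level at which a fold can be given.

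The outer ring, or Y complex, is a scaffold whose subunits occur in fixed proportion; 5 of its 8 genes rose. SEH1L stood at 51.6, 43.4 and 41.7 CPM in controls and at 74.9, 79.1 and 79.4 CPM in ApoD libraries (log2 fold change 0.77 ± 0.10 SE, edgeR adjusted p = 9.04e-05), and SEC13 rose by 0.64 ± 0.09. Both proteins also work outside the pore, in the GATOR2 complex of amino acid sensing, and SEC13 in the COPII coat of secretory vesicles. NUP37, NUP43 and NUP107 rose by 0.40, 0.27 and 0.27, and NUP133, NUP85 and NUP160 had values of 0.25, 0.16 and 0.14 that did not pass. The call of NUP107 was lost in 10 of 16 alternative fits and that of NUP43 in 8, in both cases under scaling by totals, with the abundance trend removed and on FPKM, and without control replicate 2 or ApoD replicate 3. NUP37 lost its call with the abundance trend removed (0.26, edgeR adjusted p = 0.0512).

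SEH1L and SEC13 together amounted to 0.361, 0.341 and 0.328 of the summed FPKM of the other 6 outer ring genes in controls and to 0.435, 0.489 and 0.460 in ApoD libraries. The groups were apart, but this grouping was chosen after the values were seen and was not tested. SEC13 and SEH1L have 2253 and 4109 bases. NUP133, NUP160, NUP107 and NUP43 have 5208 to 6677, and NUP37 and NUP85 have 2362 and 3194. Long genes had lower fold changes in these libraries, and the part of gene length in this ratio was not tested. Summed FPKM of those 6 genes was 130 ± 5.54 in controls and 142 ± 5.68 in ApoD libraries (SD, n = 3).

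In the inner ring 4 of 5 genes rose. NUP188 went from 228, 186 and 180 CPM to 302, 333 and 363 CPM (log2 fold change 0.75 ± 0.11 SE, edgeR adjusted p = 0.000194). NUP205, its paralogue and alternative partner of NUP93, stood at 272, 222 and 210 CPM in controls and at 283, 203 and 307 CPM in ApoD libraries, with a change of 0.17 ± 0.15 that did not pass. Without ApoD replicate 2, the lowest of all 6 libraries, NUP205 passed at 0.32 (edgeR adjusted p = 0.0434). NUP93, the linker of the inner ring, NUP35 and NUP155 rose by 0.55, 0.47 and 0.30; the call of NUP155 was lost in 8 of 16 alternative fits.

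In the central channel NUP62, whose phenylalanine-glycine repeats contact the receptors, rose from 73.1, 68.4 and 64.0 CPM to 102, 114 and 105 CPM (log2 fold change 0.65 ± 0.09 SE, edgeR adjusted p = 0.000156). Exons of NUP62 overlap those of the stress-response factor ATF5 on the other strand, which rose by 1.65, so part of the count cannot be assigned without strand. NUP58 rose by 0.39, a call lost with the abundance trend removed (0.21, edgeR adjusted p = 0.0967) and on unfiltered FPKM. NUP54 had a value of 0.23 (edgeR adjusted p = 0.0612) with all ApoD libraries above the controls. NUP62CL, which resembles the carboxyl end of NUP62, stood at 11.4, 14.8 and 16.6 CPM in controls and at 11.7, 9.96 and 9.03 CPM in ApoD libraries. The groups overlapped; the fall of 0.48 on the log2 scale passed (edgeR adjusted p = 0.0275) but was lost in 7 alternative fits, among them those without control replicate 2 or 3.

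On the cytoplasmic face 5 of 7 genes rose. NUP98, which lines the channel and also binds chromatin, and whose precursor is cut to release the scaffold protein NUP96, went from 361, 310 and 286 CPM to 473, 457 and 541 CPM (log2 fold change 0.62 ± 0.11 SE, edgeR adjusted p = 0.000563). Its partner in mRNA export RAE1 rose by 0.54, NUP214 and NUP88, which form a complex, by 0.55 and 0.53, and NUP42 by 0.34, the last a call lost with library totals (0.22, edgeR adjusted p = 0.0937) and on FPKM. AAAS had a value of 0.00 and its libraries overlapped. RANBP2, the giant filament protein that holds RANGAP1 at the pore, stood at 85.7, 60.7 and 56.7 CPM in controls and at 89.0, 46.8 and 88.4 CPM in ApoD libraries, with a change of 0.14 ± 0.22. Near-copies of RANBP2, the RGPD genes, can share its reads; RGPD2 was lower by 1.14 and the 5 other tested copies did not pass.

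In the nuclear basket 1 of 3 genes rose, NUP153 by 0.43, a call lost with the abundance trend removed (0.24, edgeR adjusted p = 0.0883) and on unfiltered FPKM. TPR, the long coiled coil that builds the basket, stood at 177, 141 and 129 CPM in controls and at 145, 83.4 and 147 CPM in ApoD libraries. Its change of −0.25 ± 0.19 did not pass, and without ApoD replicate 2 it was −0.04. NUP50, which helps release cargo from importin alpha, had a value of 0.26 (edgeR adjusted p = 0.0657) and passed without ApoD replicate 2, at 0.34 (edgeR adjusted p = 0.0121).

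**Figure D3:**
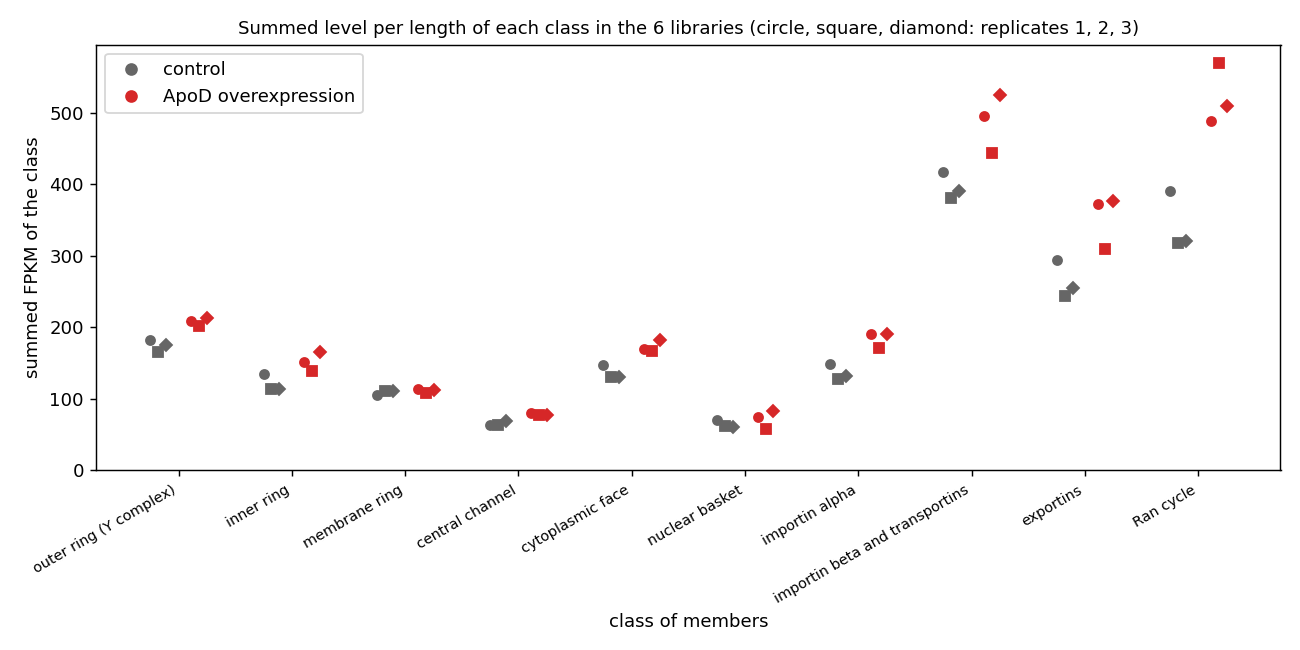
Summed FPKM (vertical axis, from 0) of the genes of each class in the 3 control (grey) and 3 ApoD (red) libraries; circle, square and diamond are replicates 1, 2 and 3. FPKM is scaled by library totals and not by TMM. On this scale the Ran cycle has the largest ratio, with means of 343 and 523, and the sums of the membrane ring and the nuclear basket overlap between groups. RAN alone makes up 77.2% of the Ran cycle sum on average in controls and 74.6% in ApoD libraries.

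Class sums used FPKM, which is scaled by library totals and not by TMM. On this scale they were higher in every ApoD library than in every control for 8 of 10 classes. For these the exact permutation p was the smallest possible, 0.1 (0.125 adjusted over the 10 classes). TMM factors were 1.02, 1.04 and 1.07 in controls and 0.975, 0.946 and 0.960 in ApoD libraries, so TMM scaling raises ApoD sums against controls. Class sums under TMM were not put to the permutation test. The ratio of the means, ApoD over control, was 1.52 for the Ran cycle, 1.35 for importin alpha, 1.34 for exportins and 1.23 for importin beta with transportins. For the nucleoporin classes it ran from 1.03 for the membrane ring to 1.27 for the cytoplasmic face. The Ran cycle sum was mostly RAN, at 77.2% on average in controls and 74.6% in ApoD libraries. The sum over all 61 genes was 1951, 1715 and 1757 FPKM in controls and 2345, 2244 and 2434 FPKM in ApoD libraries.

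ApoD replicate 2 stood apart by gene length. Among the tested members with a mean count of at least 100, those of 6000 bases or more had their lowest ApoD value in replicate 2 in 23 of 29 cases, with a median of −0.19 (log2, replicate 2 minus the mean of replicates 1 and 3). For members of under 3000 bases that held for 2 of 10, with a median of 0.10. RANBP2, of 14177 bases, lay 0.91 below the other ApoD libraries and TPR, of 9636 bases, 0.80 below. The same tilt was present over all genes averaging 500 counts or more: replicate 2 differed from the other ApoD libraries by a median of 0.28 for genes under 1000 bases and of −0.18 for those of 8000 bases or more. The median log2 fold change of members was 0.55 in the short class, 0.56 between 3000 and 6000 bases and 0.35 in the long class. Over all genes averaging 500 counts or more it was also lower for long genes. It was 0.19 under 1000 bases, 0.20 from 1000 to 2000, 0.07 from 6000 to 8000 and −0.06 at 8000 or more. Without replicate 2, 46 members rose and 1 fell, against 21.4% higher and 22.3% lower among all tested genes. With each library's length trend removed, 45 members rose and 2 fell, against 26% higher and 24.6% lower among all tested genes.

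**Figure D4:**
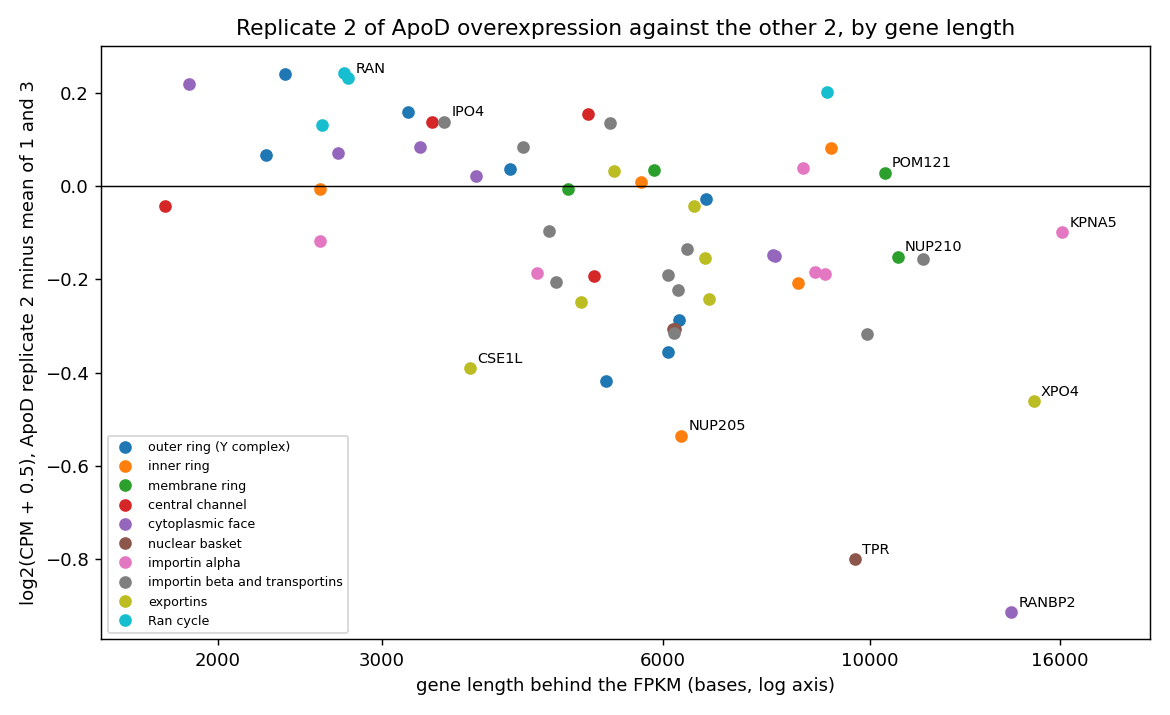
Difference of ApoD replicate 2 from the mean of replicates 1 and 3 (log2 of CPM + 0.5, vertical axis) against the gene length behind the FPKM (bases, log axis) for the tested members with a mean count of at least 100, coloured by class. Long genes lie mostly below 0, lowest for RANBP2 and TPR, and most genes under 3000 bases lie above it.

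Other genes of nuclear transport, outside the 61, were taken from lists chosen with earlier results of these data known. Of 74 tested, with the copies of RANBP2 left out, 44 rose and 2 fell, and the median log2 fold change was 0.30. Over all tested genes 24.2% were called higher and 24.6% lower, and 37.5% were higher among those averaging 1000 counts or more. Of the 6 tested copies of RANBP2 1 fell and 5 did not pass, with a median of −0.52. Beside the Ran cycle, RANBP1, a co-activator of Ran GTP hydrolysis, rose by 0.87, NXT1, the partner of the mRNA exporter NXF1, by 0.93, and RANBP3, a cofactor of XPO1, by 0.73, among 7 of 14 that rose. In mRNA export 13 of 21 rose, with the helicases DDX39A and DDX19A at 1.20 and 0.84 and the adaptor ALYREF at 0.73. Among export and import adaptors of RNA and ribosomes 6 of 11 rose, led by ZNF593, TSR1 and LTV1 at 1.08, 1.05 and 0.96, all of them factors of ribosome assembly.

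Of 15 other pore and pore assembly genes 11 rose, among them MCM3AP, the scaffold of an mRNA export complex at the basket, by 0.78 and the membrane protein TMEM33 by 0.63. The nuclear lamina and inner membrane list had both directions, with 8 of 14 higher and 2 lower. LMNB2 and LBR rose by 0.61 and 0.55. SYNE2 and SYNE1, which link the nucleus to the cytoskeleton and are the longest genes of the list, fell by 1.62 and 0.68 on the log2 scale. Both were lowest in ApoD replicate 2, at 18.6 and 5.26 CPM.

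Promoter windows from RefSeq (GRCh38.p14), 250 bases before to 50 after a start, were matched by symbol for 55 of the 61 members, as 72 entries; the build behind the counts is not given in the sources used here. The E-box CACGTG, which reads the same on both strands and which MYC and USF factors can bind, was in 9 of 72 entries (12.5%), against 7.26% of all 35116 entries and 9.15% of those of tested genes. The ETS motif CCGGAAGT, searched on both strands, was in 16.7% of the entries of members, against 4.14% of all and 7.02% of those of tested genes. GCATGCGC, the core of the NRF1 site, was in 8.33%, against 3.05% and 4.61%, the GC box GGGCGG in 52.8%, against 45.0% and 64.7%, and CCAAT in 38.9%, against 34.6% in both. These matches describe letters only, and entries of the same gene can overlap.

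The E-boxes are shown because they stand before the starts of IPO4 and RCC1, the members with the largest rises. Each line gives the box in capitals with the bases beside it and the distance of its first base from the start, 5′ to 3′ on the strand of the gene.
IPO4, chr14:24188828-24188857, minus strand, 29 bases before the start: tgtcagaacctcCACGTGctgtccctcccc
RCC1, chr1:28518024-28518053, plus strand, 190 bases before its downstream start: tggttgttagtcCACGTGtcccgatttggg
NUP188, chr9:128947610-128947639, plus strand, 77 bases before: ccgcggcaacgtCACGTGacgaaatccccg
NUP188, chr9:128947657-128947686, plus strand, 30 bases before: ggggcgagcggtCACGTGggcatggcgtct
RAN, chr12:130871952-130871981, plus strand, 102 bases before: gcacgcgcgggcCACGTGggcgggcgccgc
KPNA3, chr13:49792731-49792760, minus strand, 66 bases before: accgcccccggtCACGTGtcgccagcctcc
XPO1, chr2:61537114-61537143, minus strand, 44 bases before its downstream start: gtccgcctgcatCACGTGgccccctcggtg
TNPO2, chr19:12723939-12723968, minus strand, 24 bases before: ggcggctttctgCACGTGtttctcagccca
IPO7, chr11:9384502-9384531, plus strand, 138 bases before: agctcaggcagcCACGTGggctgcggactg
NUP50, chr22:45163739-45163768, plus strand, 174 bases before: cgttgccggcccCACGTGagccgacgcccc
The last base of the box of RAN is also the first of a GC box. Of the 9 genes shown 7 rose, near the share of 42 of the 60 tested members, and IPO7 and NUP50 did not pass. XPO6, with the third largest rise, has no E-box in its window; the ETS motif is in the windows of XPO6, IPO4 and the upstream start of RCC1. Among entries of members called higher 7 of 52 held an E-box (13.5%), and 2 of 20 of those of the other members (10%). The other members are those called lower, not past the threshold or not tested. With so few entries the difference was not tested.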

How the data were processed

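For 21676 gene symbols in 6 libraries the authors deposited raw counts and FPKM values; the kit was a SMARTER mRNA-Seq kit per the labels' protocols. Aligner, counter, strand setting and build: not given in the sources used here. Each of the 108650 deposited FPKM values above 0 equalled count over column total over 1 gene length (relative tolerance 1e-06); those lengths are used here, and 0 columns were left unmatched. The main test was edgeR's quasi-likelihood F test (edgeR 4.0.16 in R 4.3.3) on the deposited counts, with TMM scaling and filterByExpr (minimum count 10), two-sided, adjusted by Benjamini-Hochberg over 14629 genes, threshold 0.05. SE is the log2 fold change over the root of F. Levels are CPM. FPKM is scaled by column totals and was used for sums and shares, with exact permutation tests. Alternatives were other scalings, DESeq2 1.42.0, limma 3.58.1 on log2(FPKM + 1) or log2(FPKM + 0.1), no filter, a replicate block, a test against 1.5-fold and leaving out each library; removal of the length trend and the background of genes averaging 1000 counts were chosen after seeing the data. Per-library values were to be given for the 14 largest called changes in each direction and for 9 hub genes. Members and lists were chosen with earlier results of these data known. Exon overlaps and pseudogenes are from GENCODE 29.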

Additional observations from a re-analysis of the deposited data

How the results depend on the processing

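Of the 42 members called higher 28 kept their call in all 16 alternative fits, and of the 2 called lower only NUP210 did. These 16 leave out the test against a 1.5-fold change, which is given separately below. The 14 rises that lost their call in at least 1 fit were those of NUP107, XPO7, NUP43, NUP155, TNPO1, KPNA4, KPNA1, CSE1L, NUP42, NUP58, NUP153, NUP37, XPO1 and XPO4, the last 3 in 1 fit each. In these fits no member changed direction with a call on either side. Members called higher numbered 29 to 46 over those fits. Members called lower numbered 1 in place of 2 with the abundance trend removed, with the replicate block and on unfiltered FPKM, and 1 to 2 with 1 library left out. Tested against a 1.5-fold change with glmTreat, 3 of the 60 tested members were higher (RCC1, IPO4 and XPO6) and 0 lower, against 10 and 1 at an unadjusted p under 0.05. Over all tested genes this fit called 3.73% higher and 9.78% lower, 1975 genes in place of 7140, so the members were near the share of all genes called higher. The replicate block gave 40 members higher and 6348 genes called. Same-numbered libraries had correlations of −0.198, −0.0321 and −0.131 in their deviations from the group means, which gave no sign of pairing by number. Deviations of 3 libraries sum to 0 within a group, so these values cannot decide whether the numbers pair libraries. Rescaling FPKM by TMM divides each library by a single factor, so the scaling itself raised the ratio of every class sum. For some classes the shift was larger than the spread of the ratio between libraries. These were the outer ring, to 1.29, the membrane ring, to 1.11, the central channel, to 1.30, and the cytoplasmic face, to 1.38, from 1.19, 1.03, 1.20 and 1.27. Depth limits NUP210L and KPNA7.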
